A study of Mus musculus with 24 samples.

Results

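The 10 genes described here encode the killing proteins and effector cytokines of CD8 T cells: the granule proteases granzymes A, B, C and K (Gzma, Gzmb, Gzmc, Gzmk), the pore-forming protein perforin (Prf1), the granzyme B inhibitor Serpinb9, the cytokines interferon gamma (Ifng), tumour necrosis factor (Tnf) and interleukin 2 (Il2), and the death ligand Fasl. They were taken by symbol from the T cell count table, which lists 24421 genes. Of the 10, 9 passed the filter on low counts and were among the 12824 genes tested, and Gzmk did not. The series holds 24 samples of mouse cells and asks how loss of Fto in tumour cells affects those cells and the T cells that meet them. The T cells are OT-I CD8 T cells of the C57BL/6 background, whose receptor recognises a peptide of ovalbumin. They were isolated as naïve cells with a kit, kept for 8 h with B16-OVA tumour cells (melanoma of the mouse, made to carry ovalbumin) in medium with 50 U of interleukin 2, and then sorted. The tumour cells carried a control hairpin (shNC) or one of 2 hairpins against Fto, an RNA demethylase (shFto-1 and shFto-2). Each of the 3 co-cultures gave 2 libraries. All groups share the OT-I receptor, the antigen and the added interleukin 2, so there is no T cell group without antigen and none without tumour cells. The hairpins act in the tumour cells, not in the T cells. Whether the 2 libraries of a co-culture stem from different mice or different dishes is not given in the sources used here, so p-values reflect only how far such libraries differ, possibly for technical reasons.

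A CD8 T cell kills by releasing granules onto its target: perforin opens the membrane and granzymes enter and cleave proteins of the target cell. Serpinb9 binds granzyme B that has leaked into the killer's own cytosol. Naïve CD8 T cells hold little of this machinery and build it after their receptor has been engaged, while the cytokine genes are switched on early after stimulation and their messenger RNAs are turned over fast.

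Library totals ran from 2628158 counts (shNC replicate 1) to 13066355 (shFto-1 replicate 1), and values below are TMM-scaled CPM (counts scaled to a common library size), with replicate 1 named before replicate 2 and any mean ± SD over the 2 libraries. Fto itself ran from 28.3 to 33.5 CPM in the 3 shFto tumour libraries and from 91.8 to 108 CPM in the 3 shNC tumour libraries. The titles of the shFto tumour libraries do not tell shFto-1 from shFto-2, so Fto in each line is not known here. In the T cells Fto did not pass the test in any comparison (log2 difference 0.09 for both shFto co-cultures against shNC, adjusted p = 0.648). The summed level of 9 CD8 T cell markers was 2449 to 2696 CPM in the shNC co-culture, 2416 to 2510 CPM in shFto-1 and 2101 to 2218 CPM in shFto-2, and none of the 9 was at 0. Summed markers of CD4 T cells, NK cells, B cells and myeloid cells stayed at or below 13.6 CPM in every library, with Foxp3, Klra4, Klra8 and Cd79a at 0 throughout. Melanoma markers did not: the sum of 10 genes was 988 to 1253 CPM in shNC, 1398 to 1497 CPM in shFto-1 and 1302 to 1466 CPM in shFto-2, against 14870 to 19164 CPM in the tumour libraries, which were scaled apart. All 10 melanoma markers were tested, and 3 were higher in the mean of both shFto co-cultures and none lower. Over all genes tested, 20.3% were higher and 12.7% lower. The 3 were Pmel, Tyr and Tyrp1 (log2 differences 2.15, 1.97 and 0.68), while the others ran from -0.25 (Mlana) to 0.37 (Trpm1). Messenger RNA of melanoma genes was thus counted in every T cell library, and its markers did not move as 1 group. Whether the amount of tumour RNA differed between the groups was not tested.

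**Figure D1:**
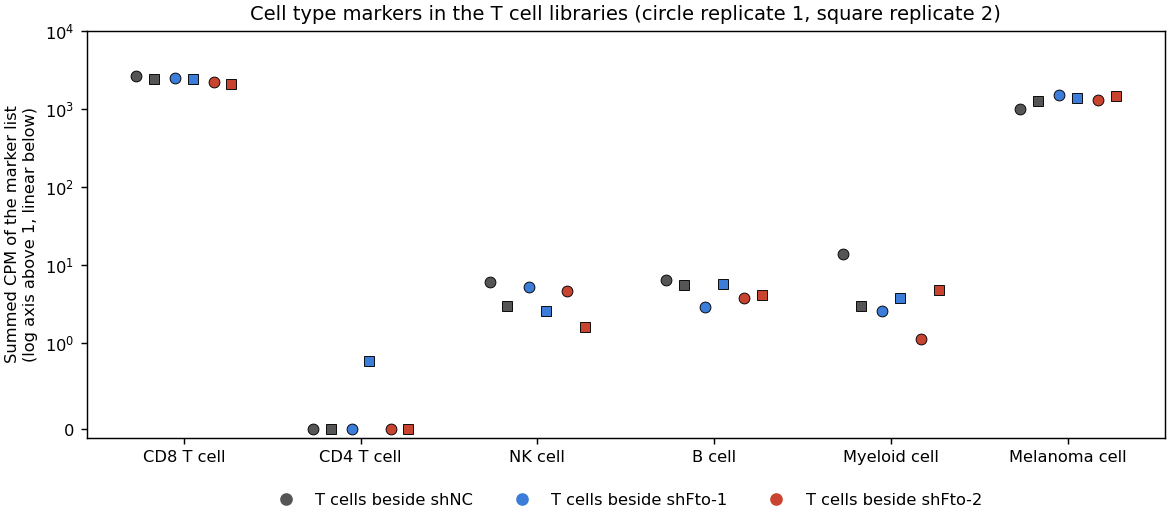
Summed CPM of 6 marker lists (x axis) in the 6 T cell libraries, on a y axis that is logarithmic above 1 and linear below; each point is 1 library. CD8 T cell markers lie above 2101 CPM in all libraries, melanoma markers between 988 and 1497 CPM, and the other 4 lists at or below 13.6 CPM.

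For the members themselves the tumour RNA libraries give levels in tumour cells. No co-culture is given for those libraries. Here and below they thus do not give levels in tumour cells that had met T cells. Gzma, Gzmb, Gzmc, Gzmk, Prf1, Ifng and Il2, which make 7 of the 10, had 0 counts in all 6 tumour RNA libraries, whose totals ran from 11152404 to 19665589. Tnf had 8 counts there in all and Fasl 3. Serpinb9 was the exception, at 1.92 to 4.10 CPM in the 3 shFto tumour libraries and 1.92 to 2.58 CPM in the 3 shNC ones, far below its T cell levels of 84.3 to 293 CPM.

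The upstream sequences of 5 members are shown because these genes moved in different ways: Gzmb, Ifng and Il2 rose, Tnf fell and Gzma did not pass the test. Each is the 250 bases before the RefSeq start on the gene's own strand, 5′ to 3′ (build GRCm38.p6), and all 10 members matched the table by symbol. Capitals mark matches, on either strand, to the NFAT core GGAAA, the AP-1 motif TGANTCA or the RUNX motif TGTGGT, which are bound by transcription factors of activated and cytotoxic T cells. In order, the windows are at chr14:56262335-56262584 (minus strand), chr13:113100982-113101231 (minus), chr10:118440796-118441045 (plus), chr3:37125955-37126204 (minus) and chr17:35202008-35202257 (minus).
Gzmb: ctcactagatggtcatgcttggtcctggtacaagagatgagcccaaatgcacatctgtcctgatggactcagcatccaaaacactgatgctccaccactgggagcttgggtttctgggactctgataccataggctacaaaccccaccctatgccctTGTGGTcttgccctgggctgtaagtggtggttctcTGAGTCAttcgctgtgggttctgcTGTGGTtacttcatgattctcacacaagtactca
Gzma: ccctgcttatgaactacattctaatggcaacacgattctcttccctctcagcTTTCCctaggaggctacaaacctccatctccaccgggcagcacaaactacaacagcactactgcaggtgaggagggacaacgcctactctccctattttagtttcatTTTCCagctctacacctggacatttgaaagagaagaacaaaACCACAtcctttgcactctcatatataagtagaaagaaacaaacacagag
Ifng: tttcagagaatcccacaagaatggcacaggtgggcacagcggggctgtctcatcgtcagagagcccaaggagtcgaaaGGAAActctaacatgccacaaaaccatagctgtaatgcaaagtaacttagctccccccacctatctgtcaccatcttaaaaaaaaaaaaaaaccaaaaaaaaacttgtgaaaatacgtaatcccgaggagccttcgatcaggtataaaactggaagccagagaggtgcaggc
Il2: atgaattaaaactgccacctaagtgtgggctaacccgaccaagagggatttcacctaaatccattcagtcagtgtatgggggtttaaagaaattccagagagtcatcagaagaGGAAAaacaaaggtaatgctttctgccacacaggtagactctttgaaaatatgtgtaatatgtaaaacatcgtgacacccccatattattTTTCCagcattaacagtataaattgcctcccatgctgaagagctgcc
Tnf: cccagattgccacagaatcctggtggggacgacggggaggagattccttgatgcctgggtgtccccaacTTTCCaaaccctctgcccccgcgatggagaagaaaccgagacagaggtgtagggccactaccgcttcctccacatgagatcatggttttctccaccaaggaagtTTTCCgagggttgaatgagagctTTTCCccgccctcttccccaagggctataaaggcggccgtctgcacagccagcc

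The Gzmb window holds a RUNX match 93 and another 34 bases before the start, and an AP-1 match 58 bases before it. It was the only one of the 10 member windows with an AP-1 match, and 6.75% of 32851 promoter windows of that length hold one. RUNX matches stood in the windows of Gzma, Gzmb, Gzmc and Prf1, which are 4 of 10 members, against 14.0% of all windows. For Gzmc, Prf1 and Serpinb9 the start used lies inside the gene span given below. The windows of Gzmc and Serpinb9 thus lie wholly within those spans, and that of Prf1 in part. The Gzma window holds a RUNX match 50 bases before the start and 2 NFAT core matches. The cytokine windows shown held NFAT core matches: 1 in Ifng, 2 in Il2 and 3 in Tnf. This short core is common and stood in 55.6% of all windows and in those of 6 of the 10 members. The T-box letters GGTGTG matched in Gzmk, Serpinb9 and Fasl (3 of 10, against 16.3%) and in none of the 5 windows shown. The NFAT matches shown stand upstream of Ifng and Il2, which rose, Tnf, which fell, and Gzma, which did not pass the test. These windows were picked because their genes moved in different ways, so no conclusion is drawn from that spread.

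Gzmc passed the filter on low counts through the shFto groups alone, where it is high, so the counts that follow leave it out. Of the other 8 members tested, 5 were higher and 1 lower in the mean of both shFto co-cultures against shNC by edgeR's quasi-likelihood test with adjustment over all 12824 genes. Over all genes tested, 20.3% were higher and 12.7% lower. The median log2 difference of the 8 was 0.79, against -0.01 over all genes. Both shFto co-cultures are set against the same 2 shNC libraries, so their differences from shNC share those controls. Against shNC, 5 of the 8 were higher and 0 lower beside shFto-1 cells (15.4% and 6.84% of all genes), with a median of 0.97 against 0.02 over all genes. Beside shFto-2 cells 5 were higher and 1 lower (20.4% and 13.3% of all genes), with a median of 0.61 against -0.03. In all 4 shFto libraries Gzmb, Prf1, Serpinb9, Ifng and Il2 lay above both shNC libraries (5 of 8, against 28.2% of all genes), and Gzma and Tnf lay below both (2 of 8, against 23% of all genes). Scaling by library totals in place of TMM lowers the median of all genes in the mean comparison to -0.18 and the share of called genes that are higher from 61.5% to 42.8%. Of these 8 members' directions in that comparison only that of Fasl turned with it, so the log2 differences of the others are read relative to a shift of that size.

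**Figure D2:**
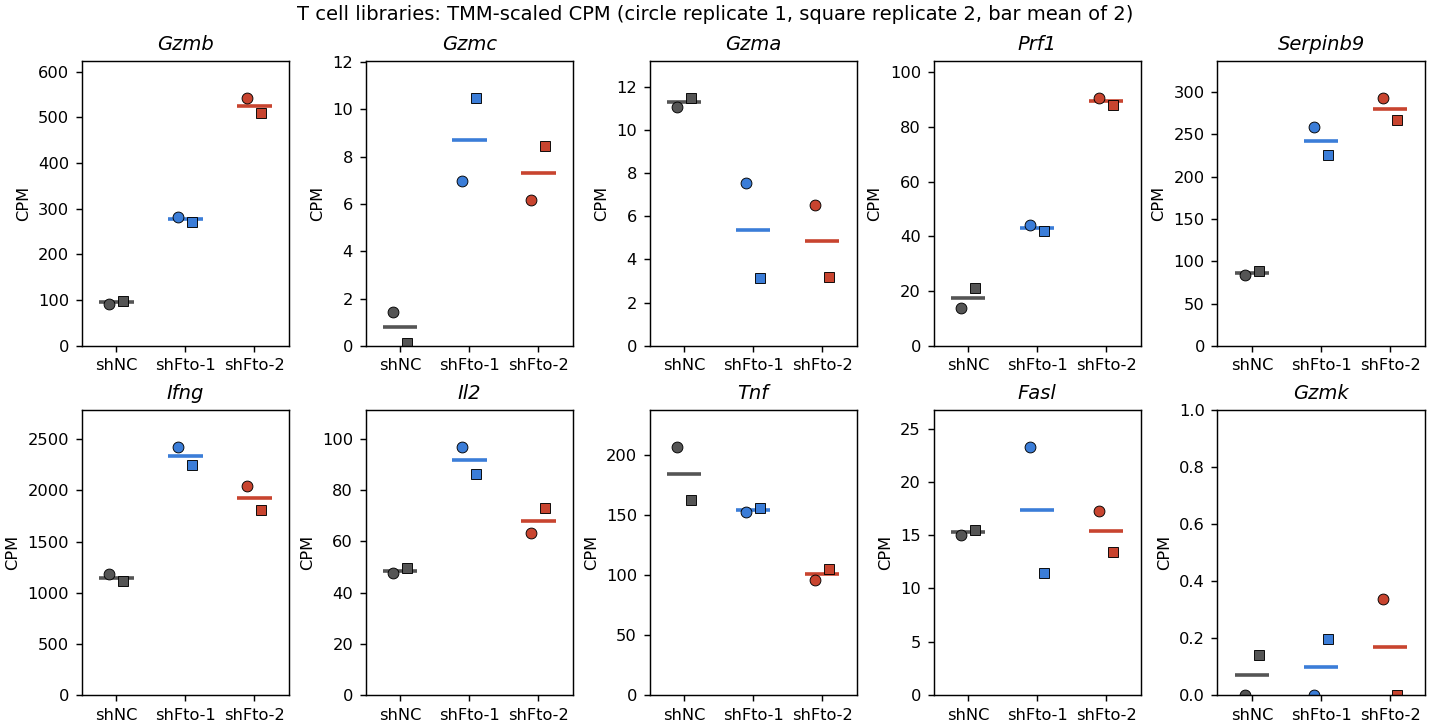
CPM (y axis, linear from 0, its own scale for each gene) of the 10 members in T cells by the hairpin of their tumour cells (x axis); circles and squares are replicates 1 and 2 and the bar is their mean. Gzmb and Prf1 climb from shNC to shFto-1 to shFto-2, Ifng and Il2 are highest beside shFto-1, and Tnf is lowest beside shFto-2.

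Granzyme B and perforin rose together and did so in steps. Gzmb (chr14:56258836-56262334, minus strand), the protease that cleaves caspases and other proteins of the target, stood at 91.8 and 98.1 CPM beside shNC cells, 283 and 270 beside shFto-1 and 542 and 510 beside shFto-2. The 3 groups do not overlap and the libraries of a group lie close together (SD 4.50 CPM for shNC, 277 ± 8.79 CPM for shFto-1 and 526 ± 22.7 CPM for shFto-2, n = 2 each). The share of all genes whose shFto-1 and shFto-2 libraries do not overlap was not counted. Such an order is thus only described, here and for the members below. Against shNC, Gzmb was 2.90-fold higher beside shFto-1 cells (log2 difference 1.54, SE 0.10, adjusted p = 1.07e-04) and 5.51-fold higher beside shFto-2 cells (2.46, SE 0.10, adjusted p = 5.91e-06). For the mean of both (log2 difference 2.00, SE 0.09, adjusted p = 1.75e-05) it had the smallest p of all 12824 genes, and ranked 1 to 6 by p under the alternatives run. The lines differed as well: Gzmb was higher by 0.93 on the log2 scale beside shFto-2 than beside shFto-1 cells (95% interval 0.72 to 1.13, adjusted p = 0.0186). In bulk RNA a larger share of cells with the message and more message per cell cannot be told apart, here and for every member below.

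Prf1 (chr10:61297751-61304684, plus strand), without which granzymes do not reach the target's cytosol, gave 13.9 and 21.0 CPM beside shNC, 44.2 and 41.9 beside shFto-1 and 90.5 and 88.2 beside shFto-2. The order of the groups is that of Gzmb, again with no overlap. Prf1 was 2.35-fold higher beside shFto-1 (log2 difference 1.23, SE 0.17, adjusted p = 0.00120) and 4.86-fold higher beside shFto-2 (2.28, SE 0.17, adjusted p = 2.26e-05). Between the lines the log2 difference was 1.05 (95% interval 0.72 to 1.38, adjusted p = 0.0222). Gzmb and Prf1 were 2 members called higher beside shFto-2 than beside shFto-1 cells, where 0.491% of all genes were, and Tnf was the 1 member called lower, where 1.42% were. Without shFto-1 replicate 1, the deepest library, the differences were as large (0.97 for Gzmb and 1.10 for Prf1) but did not pass the test (adjusted p = 0.0812 and 0.144), and 1 gene of the whole table was still called.

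Gzmc, a granzyme of strongly activated T cells, went from almost no reads to a low level. The gene (chr14:56231397-56241647, minus strand) had 4 and 1 counts beside shNC (1.43 and 0.140 CPM), 86 and 53 beside shFto-1 (6.97 and 10.5 CPM) and 55 and 53 beside shFto-2 (6.18 and 8.45 CPM). All 4 shFto libraries lie above both shNC libraries. The filter admitted the gene by its shFto counts, so this order was in part set in advance. The shFto lines overlap. The CPM ratio to shNC, on counts pooled over the 2 libraries of a group, was 15.9 beside shFto-1 and 14.2 beside shFto-2. It rests on 5 shNC counts in all. Because the filter admitted the gene by its shFto counts, no p and no interval are given here for its difference from shNC. The fitted log2 difference for the mean of both, 3.73, hangs on those few shNC counts and was 5.65 without shNC replicate 1 and 2.49 without shNC replicate 2. Between the lines it was -0.25 (95% interval -1.63 to 1.14, adjusted p = 0.941).

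Gzmc has close relatives in its own gene cluster, so reads could be split between copies. The relatives took almost nothing in these libraries: Gzmd, Gzme and Gzmn had 0 counts over the 6 T cell libraries, and Gzmf and Gzmg 2 each. How reads that fit several copies were counted is not given in the sources used here, so the Gzmc values are uncertain in that respect.

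Granzymes A and K did not follow. Gzma (chr13:113093824-113100981, minus strand), a protease with a different cleavage preference from granzyme B, gave 11.1 and 11.5 CPM beside shNC, 7.54 and 3.16 beside shFto-1 and 6.52 and 3.19 beside shFto-2. Both shNC libraries are the highest of the 6, and the libraries of each shFto group lie far apart (5.35 ± 3.10 and 4.85 ± 2.36 CPM, n = 2 each). The log2 difference for the mean of both was -1.11 (95% interval -2.07 to -0.16) and missed the threshold at an adjusted p of 0.0728. Over the 10 alternatives run on that comparison, 6 put Gzma past it, with adjusted p between 0.0290 and 0.0449. Gzmk (chr13:113171630-113180965, minus strand), which lies near Gzma, had 0 and 1 counts beside shNC, 0 and 1 beside shFto-1 and 3 and 0 beside shFto-2. At 1, 1 and 3 counts per group no difference in Gzmk was detectable at this depth. The gene body of Gzma overlaps that of Cdc20b, and the strand setting of the counting is not given in the sources used here.

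Serpinb9 (chr13:32997061-33017955, plus strand) rose with its protease beside both lines, with no difference between the lines past the threshold. It gave 84.3 and 88.8 CPM beside shNC, 258 and 226 beside shFto-1 and 293 and 267 beside shFto-2. Both shFto groups lie clear above shNC, and the lower shFto-2 library lies just above the higher shFto-1 library. The inhibitor was 2.79-fold higher beside shFto-1 (log2 difference 1.48, SE 0.11, adjusted p = 2.04e-04) and 3.22-fold higher beside shFto-2 (1.69, SE 0.11, adjusted p = 1.88e-05). Between the lines the difference was 0.21 (95% interval -0.03 to 0.44, adjusted p = 0.376). Whether that step differs from the step of Gzmb was not tested. Serpinb9 belongs to a family of similar serpin genes and its span overlaps Gm36181, so its counts are uncertain where reads fit more than 1 gene.

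**Figure D3:**
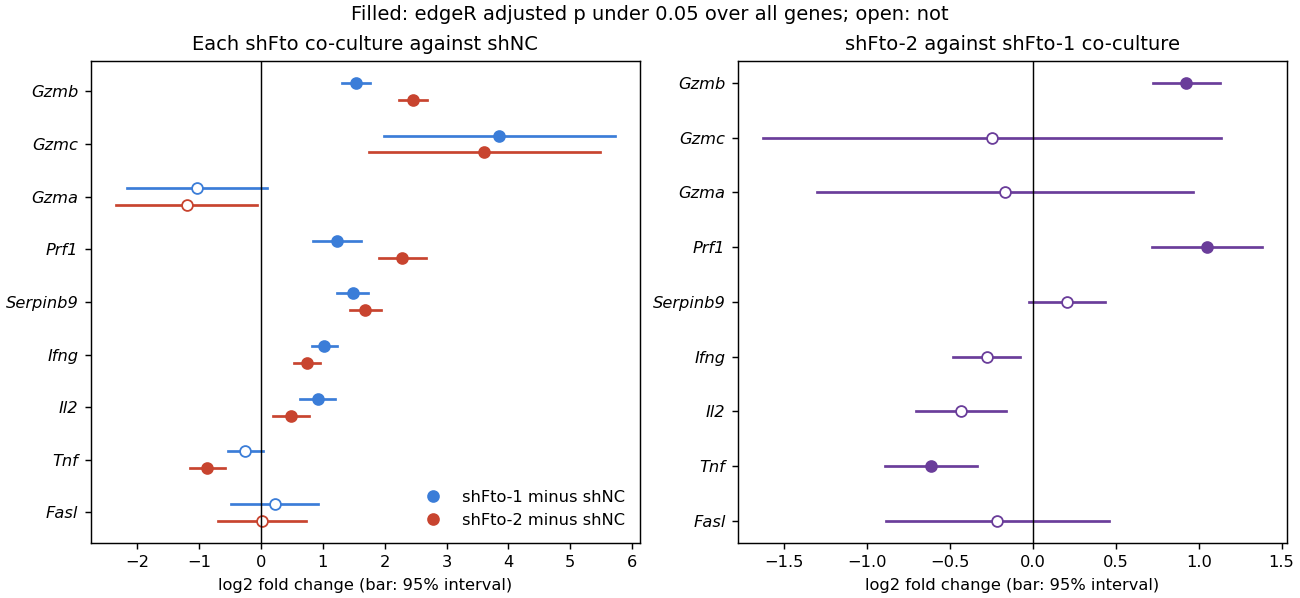
Log2 fold changes (x axis) with 95% intervals of the 9 members tested (y axis), for each shFto co-culture against shNC on the left and for shFto-2 against shFto-1 on the right. Filled points passed an adjusted p of 0.05. On the left, Gzmc entered the test by its shFto counts alone, so its filled points and intervals there carry no call. On the left Gzmb, Gzmc, Prf1, Serpinb9, Ifng, Il2 and, as open points, Fasl lie to the right of 0 for both lines. On the right the filled points are Gzmb and Prf1 above 0 and Tnf below. The intervals of Ifng and Il2 there also lie below 0, with open points.

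Of the 3 cytokines, Ifng and Il2 rose and Tnf fell. Ifng (chr10:118441046-118445894, plus strand), which makes tumour and myeloid cells raise antigen presentation, gave 1179 and 1117 CPM beside shNC, 2422 and 2245 beside shFto-1 and 2041 and 1808 beside shFto-2. Both shFto groups lie above shNC, with the higher mean beside shFto-1. Ifng was 2.03-fold higher beside shFto-1 (log2 difference 1.02, SE 0.09, adjusted p = 2.90e-04) and 1.68-fold higher beside shFto-2 (0.75, SE 0.09, adjusted p = 1.78e-04). The difference between the lines, -0.28, did not pass the test (95% interval -0.48 to -0.08, adjusted p = 0.148).

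Il2 (chr3:37120713-37125954, minus strand), a growth factor that T cells make early after stimulation, gave 47.5 and 49.5 CPM beside shNC, 96.8 and 86.5 beside shFto-1 and 63.4 and 72.9 beside shFto-2. The order of the group means is that of Ifng. It was 1.89-fold higher beside shFto-1 (log2 difference 0.92, SE 0.13, adjusted p = 0.00118) and 1.40-fold higher beside shFto-2 (0.48, SE 0.13, adjusted p = 0.0167). The call beside shFto-2 is lost with library totals (adjusted p = 0.0995), without shFto-2 replicate 2 (0.133) and without shNC replicate 1 (0.0741). The lines differed by -0.44 (95% interval -0.71 to -0.16, adjusted p = 0.0983), which passed with DESeq2 (adjusted p = 0.0235). Because the medium held 50 U of interleukin 2 in all groups, Il2 message is not the T cells' whole supply of the cytokine.

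Tnf (chr17:35199367-35202007, minus strand), an inflammatory cytokine that can kill some tumour cells, moved the other way. It gave 207 and 163 CPM beside shNC, 153 and 156 beside shFto-1 and 96.3 and 106 beside shFto-2. The shFto-1 libraries lie just below the lower shNC library and the shFto-2 libraries lie below all others. Tnf fell by 0.86 on the log2 scale beside shFto-2 (SE 0.13, adjusted p = 5.26e-04), while the difference beside shFto-1 was -0.25 (95% interval -0.53 to 0.03, adjusted p = 0.201). Library totals and DESeq2 put the shFto-1 difference past the threshold (adjusted p = 0.0387 and 0.0459). Tnf fell by 0.62 from shFto-1 to shFto-2 (95% interval -0.89 to -0.34, adjusted p = 0.0448). With any 1 of the 4 shFto libraries left out the difference stayed between -0.69 and -0.57 but did not pass the test. The adjusted p was 0.221 without shFto-1 replicate 1, 0.0972 without shFto-1 replicate 2, 0.0670 without shFto-2 replicate 1 and 0.0835 without shFto-2 replicate 2.

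Fasl (chr1:161780691-161788495, minus strand), the ligand that triggers death through the receptor Fas without granules, showed no difference past the threshold. It gave 15.0 and 15.5 CPM beside shNC, 23.3 and 11.4 beside shFto-1 and 17.3 and 13.4 beside shFto-2. The shFto-1 libraries are the highest and the lowest of the 6. The log2 difference for the mean of both was 0.12 (95% interval -0.50 to 0.74, adjusted p = 0.786), and differences in either direction within those bounds are compatible with it.

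Among genes that work with the members, those of granule loading and release were divided. Of 14 tested, 5 were higher and 1 lower in the mean of both lines, with a median of 0.16. For this list and those below, the shares of all genes in that comparison were 20.3% higher and 12.7% lower, with a median of -0.01. Whether a list departs from those shares was not tested. With library totals the counts were 5 and 3 and the median turned to -0.01. Nkg7, a granule membrane protein, gave 36.8 and 41.8 CPM beside shNC, 99.8 and 66.7 beside shFto-1 and 104 and 101 beside shFto-2 (log2 difference 1.22, adjusted p = 4.09e-04). Calr, a calcium-binding chaperone also found in the granules, rose by 0.68 (adjusted p = 2.40e-04), but it stood at 2208 to 2503 CPM in the tumour libraries against 762 to 1457 CPM in the T cells. The part of tumour RNA in that difference was not tested. Lyst, needed to shape lytic granules, fell by 1.26 (adjusted p = 1.04e-04). Of the other granzymes listed, Gzmm alone was tested, and its difference was -0.28 (adjusted p = 0.749).

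Of 5 tested serpins related to Serpinb9 or induced in activated T cells, 3 were higher and 0 lower (median 0.91). Serpinb6b rose from 115 and 108 CPM beside shNC to 289 and 301 beside shFto-1 and 350 and 355 beside shFto-2 (log2 difference 1.53, adjusted p = 1.94e-05). Serpina3g rose by 1.26 (adjusted p = 2.03e-04) and Serpina3f by 0.91 (adjusted p = 5.76e-04). None of the 3 exceeded 1.05 CPM in the tumour libraries.

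Other killing ligands and T cell cytokines counted 8 higher and 2 lower of 13 tested, with a median of 0.68. Il3, a haematopoietic cytokine of activated T cells, rose by 1.59 (adjusted p = 5.29e-05) and the chemokine Ccl3 by 1.09 (adjusted p = 4.75e-05), and both had 0 CPM in the tumour libraries. Ltb, a member of the tumour necrosis factor family, fell by 0.88 (adjusted p = 3.64e-04). Its groups were 148 and 149 CPM beside shNC, 113 and 109 beside shFto-1 and 67.8 and 49.7 beside shFto-2, the same order as Tnf, and it was lower beside shFto-2 than beside shFto-1 (-0.91, adjusted p = 0.0222).

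Of the 8 receptor genes for the member cytokines and Fasl, 2 were higher and 4 lower (median -0.25), and 1 and 4 with library totals or DESeq2. Il2ra, the high-affinity subunit of the interleukin 2 receptor, gave 361 and 343 CPM beside shNC, 561 and 563 beside shFto-1 and 747 and 815 beside shFto-2 (log2 difference 0.91, adjusted p = 4.75e-05). It was also higher beside shFto-2 than beside shFto-1 (0.47, adjusted p = 0.0374). Both interferon gamma receptor chains were lower: Ifngr1 fell by 1.08 (adjusted p = 5.66e-04) and Ifngr2 fell by 0.97 (adjusted p = 9.41e-04). Ifngr2 stood at 35.6 to 44.3 CPM in the tumour libraries, within its range of 23.0 to 73.0 CPM in the T cells.

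Genes that respond to interferon gamma counted 2 higher and 8 lower of 13 tested, with a median of -0.60, in the libraries where Ifng itself was higher. The chemokine Cxcl9 rose by 1.88 (adjusted p = 3.33e-05) and the factor Irf8 by 1.07 (adjusted p = 3.69e-05), and neither exceeded 0.106 CPM in the tumour libraries. Between the lines 0 of the 13 were higher and 5 lower (0.491% and 1.42% of all genes).

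The interleukin 2 and STAT5 list counted 5 higher and 3 lower of 10 tested (median 0.45). Cish, a feedback inhibitor of that signal, rose by 0.77 (adjusted p = 4.50e-04) and the survival gene Bcl2l1 by 0.79 (adjusted p = 1.23e-04), while the kinase gene Pim2 fell by 0.93 (adjusted p = 1.65e-04). Transcription factors of effector genes counted 6 higher and 3 lower of 14 tested (median 0.33), and 4 and 3 with library totals. Nfkb1 rose by 0.86 (adjusted p = 4.18e-05), Zeb2 by 0.75 (adjusted p = 1.89e-04) and Irf4, which scales with receptor signal, by 0.64 (adjusted p = 1.41e-04). Zeb2 also stood at 142 to 169 CPM in the tumour libraries, and the part of tumour RNA in its difference was not tested.

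Regulators of cytokine messenger RNA decay counted 2 higher and 4 lower of 9 tested (median -0.22). Zfp36, whose protein binds AU-rich elements in messages such as that of Tnf, gave 262 and 228 CPM beside shNC, 173 and 130 beside shFto-1 and 121 and 98.0 beside shFto-2 (log2 difference -0.92, adjusted p = 4.84e-04). Its relatives Zfp36l2 and Zfp36l1 fell by 0.90 (adjusted p = 7.03e-04) and fell by 0.46 (adjusted p = 0.00152). Per line, the 9 genes counted 1 higher and 3 lower beside shFto-1 (15.4% and 6.84% of all genes). Beside shFto-2 they counted 2 higher and 4 lower (20.4% and 13.3% of all genes).

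**Figure D4:**
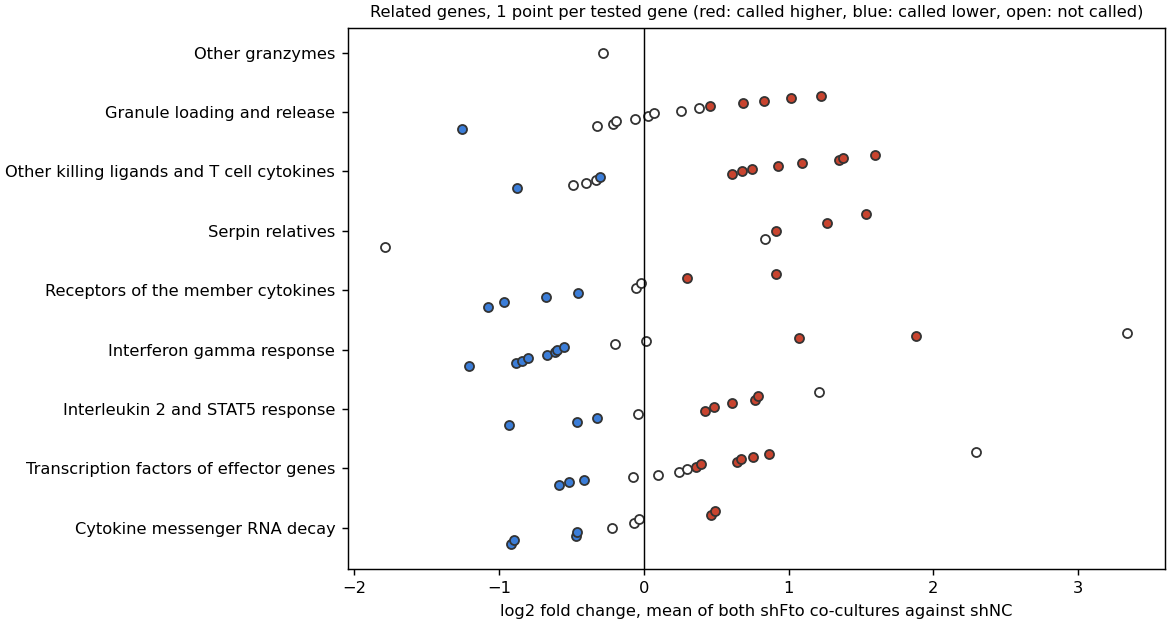
Log2 fold change for the mean of both shFto co-cultures against shNC (x axis) of every tested gene in 9 related lists (y axis), 1 point per gene; red and blue points passed an adjusted p of 0.05. Serpin relatives and other killing ligands and cytokines hold called points mostly to the right of 0 (3 of 5 and 8 of 13 tested), and interferon gamma response genes mostly to the left (8 of 13). Of all genes tested, 20.3% were called higher and 12.7% lower.

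The genes whose pattern lay nearest to a member's were found by the distance between centred log2 CPM over the 6 libraries, among 8186 genes with a mean of at least 10 CPM. Nearest to Gzmb were Slc29a3, a nucleoside transporter of lysosomes (distance 0.305), Rbpms2 (0.354) and Prf1 (0.411). Slc29a3 gave 17.9 and 20.6 CPM beside shNC, 64.7 and 54.5 beside shFto-1 and 93.8 and 97.6 beside shFto-2. Nearest to Prf1 were Gzmb (0.411), Slc29a3 (0.494) and Nlgn2 (0.526), so that Gzmb and Prf1 stood among each other's 3 nearest genes. Nearest to Ifng were Mrpl47 (0.195) and Timm13 (0.216), which serve mitochondria, and Dimt1 (0.218), an enzyme of ribosome assembly. Timm13 stood at 107 to 164 CPM in the tumour libraries against 21.8 to 44.6 CPM in the T cells. Mrpl47 stood at 19.5 to 25.8 CPM there against 11.5 to 22.4 CPM in the T cells. For Dimt1 the ranges were 32.2 to 47.6 CPM and 36.4 to 87.3 CPM. Slc29a3, Rbpms2 and Nlgn2 reached 16.1, 6.38 and 15.0 CPM in the tumour libraries. The part of tumour RNA in these patterns was not tested.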

How the data were processed

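The authors deposited unnormalized read counts by gene symbol for 6 T cell and 6 tumour RNA libraries, per the file headers. Per the labels' protocols, libraries were made with a stranded total RNA kit. Among the tools in the submitters' processing notes, given there without a role, are STAR 2.7.0f and Trim Galore 0.6.0, with the build mm10. The counting tool, its strand setting and the annotation are not given in the sources used here. The ATAC-seq and m6A peak lists were not used.

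The 6 T cell libraries were fitted together in edgeR 4.0.16 (R 4.3.3) on the deposited counts: TMM scaling, default expression filter (12824 of 24421 genes kept), quasi-likelihood F test, Benjamini-Hochberg adjustment over all genes tested, threshold 0.05. The contrasts were the mean of both shFto co-cultures against shNC, each line against shNC, and shFto-2 against shFto-1. The standard error is the log2 difference over the square root of F. The common biological coefficient of variation was 0.199. Tumour libraries were scaled apart and used for levels only. Alternatives were library totals, DESeq2 1.42.0, no filter, a replicate block, only the groups compared, and each library left out. The procedure was tested on simulated data.

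Named genes are the 10 members, up to 3 genes of each related list with the smallest adjusted p in the mean contrast, and the 3 genes nearest in pattern to Gzmb, Prf1 and Ifng. 1 gene that this rule names is not reported here. The members and lists were chosen with earlier results of these data known. Loci and upstream windows are from RefSeq tables of GRCm38.p6 and were searched with Python 3.11.15.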

Additional observations from a re-analysis of the deposited data

Results flagged for a closer look

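For 3 members the shFto co-cultures differed from each other by the test of that difference (edgeR, adjusted over all genes). Gzmb was higher by 0.93 on the log2 scale beside shFto-2 than beside shFto-1 cells, with both shFto-2 libraries above both shFto-1 libraries. Prf1 was higher by 1.05, again in both libraries. The difference of Tnf was -0.62, with both shFto-2 libraries below both shFto-1 libraries. The share of all genes whose shFto libraries are so ordered was not counted. As given above, the calls of all 3 differences depended on single libraries, while their sizes changed little. No group holds 4 libraries or more, so single libraries were not tested for standing apart.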

How the results depend on the processing

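Of 387 values of the members under 11 alternatives, 354 kept their direction and their side of the threshold, 15 turned direction and the others crossed the threshold in the same direction; the cause was not tested. None of the turned values passed the test. For Fasl in the mean comparison the log2 difference was -0.0565 with library totals, and -0.18 to 0.28 with 1 library left out. Beside shFto-1 it was -0.40 to 0.58 with 1 library left out. Beside shFto-2 it was -0.16 with library totals, -0.0344 with DESeq2, -0.0548 with the replicate block, -0.001 with only the groups compared, and -0.23 to 0.15 with 1 library left out. Between the lines, with 1 library left out, Fasl ranged from -0.60 to 0.44, Gzma from -0.80 to 0.64 and Gzmc from -0.51 to 0.0543. The number of members called between the lines ranged from 0 to 3 with 1 library left out, the 0 being without shFto-1 replicate 1. The count of all genes called between the lines moved from 245 to 997 with DESeq2, 838 without the filter, 446 with the replicate block, 113 with only the groups compared and 1 to 507 with 1 library left out. Whether replicate numbers pair the samples is not given in the sources used here. Deviations of same-numbered libraries correlated at 0.37 between the shFto groups and at -0.32 and -0.21 with shNC. These values cannot decide it, because replicate 1 was the deeper library in both shFto groups and the shallower one in shNC. The replicate block gave 8, 6, 7 and 3 members called in the 4 comparisons, against 7, 6, 7 and 3 without it. Of all 12824 genes, 4223, 2903, 4300 and 446 were called with the block. Depth limits Gzmc, with 5 shNC counts, and Gzmk, with 5 counts in all. The numbers of members called include Gzmc, which the filter admitted by its shFto counts.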

Other observations

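The T cell identity genes did not move as 1 group. Of the 9 CD8 T cell markers tested in the mean of both shFto co-cultures against shNC, 2 were higher and 6 lower. The shares of all genes tested were 20.3% higher and 12.7% lower. Cd5, a brake on receptor signalling, was higher by 0.83 on the log2 scale (adjusted p = 7.97e-05, edgeR). The surface protein gene Thy1 was higher by 0.36 (adjusted p = 0.00491). The coreceptor genes were lower: Cd8a fell by 0.43 (adjusted p = 0.00368) and Cd8b1 fell by 0.55 (adjusted p = 7.42e-04). Of the receptor complex, Cd3d fell by 0.59 (adjusted p = 0.00807) and Cd3e fell by 0.51 (adjusted p = 0.00675), while the difference of Cd3g was -0.25 (adjusted p = 0.0711). Cd2 fell by 0.67 (adjusted p = 3.53e-04) and Lck fell by 0.35 (adjusted p = 0.0247). Among the 10 melanoma markers counted in the same libraries, Pmel was higher by 2.15 (adjusted p = 1.94e-05), Tyr by 1.97 (adjusted p = 0.00119) and Tyrp1 by 0.68 (adjusted p = 6.44e-04), and the other 7 did not pass the test. These marker genes lie outside the rule for named genes and were chosen after their values were seen.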
